A study of Mus musculus with 8 samples.

Results

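Expression of 10 imprinted genes, *H19*, *Igf2*, *Igf2r*, *Meg3*, *Rian*, *Mirg*, *Dlk1*, *Grb10*, *Peg3* and *Ndn*, was compared between EpCAM+ and EpCAM- LSK cells of *Zeb1*-/- bone marrow. The list was chosen with earlier results of these data known. Its genes were taken by name from the 54532 genes of the count table, with no filter on their values, and all 10 were found. Only 3 of them, *Ndn*, *Grb10* and *Igf2r*, had enough reads to be kept by the low-count filter that left 13560 genes for testing.

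The series holds 4 libraries from EpCAM+ and 4 from EpCAM- cells, each fraction labelled as taken from 4 mice. Mice were C57BL/6, aged 8 to 12 weeks, with floxed *Zeb1* alleles and *Mx1-Cre*, which pIpC turns on, and both fractions were sorted 14 days after the last pIpC dose as Lin- C-KIT+ SCA-1+ (LSK) cells, the compartment that contains hematopoietic stem cells (HSCs). Both fractions are therefore *Zeb1*-/- and no library comes from a control mouse, so the comparison is of cells with and without the adhesion protein EpCAM on a *Zeb1*-deleted background and not of the deletion itself. *Mx1-Cre* also recombines outside blood cells, including in the bone marrow niche.

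An imprinted gene is transcribed mainly from the copy inherited from 1 parent, under the control of DNA methylation set in the germ line. *Igf2* and *Dlk1* are read from the paternal copy, and the neighbouring noncoding *H19* and *Meg3*-*Rian*-*Mirg* transcripts from the maternal copy. Several of these genes restrain or promote fetal growth, and the *H19*-*Igf2* and *Dlk1*-*Meg3* loci and *Ndn* have been linked to the quiescence of adult HSCs. Read counts from an inbred strain do not tell the parental copies apart, and methylation was not measured.

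Positions are given on GRCm38 as listed in the table. *H19* (chr7:142575529-142578143, minus strand) and *Igf2* (chr7:142650766-142666816, minus) are neighbours, and *Peg3* (chr7:6703892-6730431, minus) and *Ndn* (chr7:62346569-62350262, plus) lie elsewhere on the same chromosome. *Dlk1* (chr12:109452823-109463336), *Meg3* (chr12:109541001-109571726), *Rian* (chr12:109603940-109661716) and *Mirg* (chr12:109729764-109749460) follow each other on the plus strand, and *Grb10* (chr11:11930508-12038683, minus) and *Igf2r* (chr17:12682406-12769664, minus) stand at loci of their own.

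The noncoding members are known as much for the small RNAs they carry as for themselves, and each of the 4 microRNAs below lies within the span of 1 of them. Sequences are from RefSeq on GRCm38.p6, written 5′ to 3′ with the seed, bases 2 to 8, in capitals, and are shown because their host transcripts had few or no reads.
miR-675-5p, within *H19*: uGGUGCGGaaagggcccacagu
miR-770-5p, within *Meg3*: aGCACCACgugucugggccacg
miR-370-3p, within *Rian*: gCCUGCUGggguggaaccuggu
miR-410-3p, within *Mirg*: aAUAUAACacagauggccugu
The 4 seeds differ from each other. RefSeq lists 114 mature arms from 61 hairpins between *Dlk1* and *Dio3*, of which 3 lie within *Meg3*, 6 within *Rian* and 26 within *Mirg*, and their 104 distinct seeds include 10 that a pair of arms share.

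For the members with a difference between the fractions, *Ndn* and *Dlk1*, the RefSeq promoter windows (250 bases before and 50 bases after the annotated start) are shown with any match to the E-boxes CAGGTG or CAGGTA, motifs that ZEB1 is known to bind, in capitals. Both strands were searched, so a match on the minus strand reads CACCTG or TACCTG. The *Ndn* window is chr7:62348027-62348326 on the plus strand, downstream of the start that the count table gives for the gene, and the *Dlk1* window is chr12:109452573-109452872 on the plus strand.
*Ndn* promoter: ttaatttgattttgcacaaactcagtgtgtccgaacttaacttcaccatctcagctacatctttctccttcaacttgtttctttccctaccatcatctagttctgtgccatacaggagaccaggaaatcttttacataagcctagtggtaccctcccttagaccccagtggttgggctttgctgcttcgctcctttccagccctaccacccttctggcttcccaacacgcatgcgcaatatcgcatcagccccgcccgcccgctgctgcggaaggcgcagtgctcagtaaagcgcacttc
*Dlk1* promoter: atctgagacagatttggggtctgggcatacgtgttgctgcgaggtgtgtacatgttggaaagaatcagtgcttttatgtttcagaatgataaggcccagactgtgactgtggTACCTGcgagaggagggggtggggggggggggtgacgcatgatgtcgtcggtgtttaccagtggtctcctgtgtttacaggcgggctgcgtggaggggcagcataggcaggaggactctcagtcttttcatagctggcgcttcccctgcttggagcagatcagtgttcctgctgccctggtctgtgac
Neither motif was found in the *Ndn* window, and the *Dlk1* window held 1 match, to CAGGTA. Among 32851 RefSeq promoter windows of the same length, 20.2% held CAGGTG, 12% CAGGTA and 29.5% at least 1 of them. The *Ndn* window held 11 CpG dinucleotides and the *Dlk1* window 9, against a median of 7. Both fractions lack *Zeb1*, so no reading of ZEB1 binding follows from these letters.

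Each EpCAM+ library held 15225714 to 17073546 counted reads and each EpCAM- library 14114491 to 15929923, so that 3 reads, the floor below which a gene cannot be told from absent, correspond to 0.168 to 0.222 CPM, the unit used here for reads scaled to a common library size. *Epcam* stood at 187 ± 32.7 CPM (SD, n = 4) in EpCAM+ and 3.86 ± 3.61 CPM in EpCAM- libraries, as the sort implies. Reads over the whole *Zeb1* gene were 19.6 ± 3.76 CPM in EpCAM+ and 11.9 ± 2.14 CPM in EpCAM- libraries, which does not check the deletion, because the table does not separate the floxed exon from the others. All libraries expressed the LSK genes *Kit*, *Ly6a*, *Ptprc* and *Cd34*, at levels that differed between the fractions. *Ly6a*, the gene of the sorted antigen SCA-1, was at 200.7 CPM in EpCAM+ and 41.3 CPM in EpCAM- libraries (log2 fold change 2.28, SE 0.53, edgeR adjusted p = 0.00658). *Ptprc* (0.63, edgeR adjusted p = 0.00492) and *Kit* (0.45, edgeR adjusted p = 0.0277) also rose, while *Cd34* did not pass (0.28, edgeR adjusted p = 0.103). The *Kit* fractions overlapped in CPM, and its call was kept in 3 of the 8 fits with a library left out.

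Of the 10 genes, *Ndn* rose in EpCAM+ LSK cells, about 8.55-fold. *Dlk1*, a gene of very low level, was also higher in every EpCAM+ library than in any EpCAM- library, but had too few reads for the main test. *Grb10* and *Igf2r* were expressed in both fractions without a difference that passed the test. *H19*, *Igf2*, *Rian*, *Mirg* and *Peg3* were at or near 0 reads everywhere, and *Meg3* had 9 reads in all, from 2 libraries. Thus 1 of the 3 tested members changed, by the quasi-likelihood test of edgeR at a Benjamini-Hochberg adjusted p of 0.05. Across all genes tested, 42.6% passed, 21.8% as higher and 20.8% as lower, with a median log2 fold change of 0.02, so a share of 1 in 3 members is near the background. Groups that did not overlap in CPM were seen for 1 of the 3 tested members, *Ndn*, against 40.1% of all genes tested, and 20.1% in that direction. In bulk libraries, fewer cells of a type and less RNA per cell cannot be told apart.

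**Figure D1:**
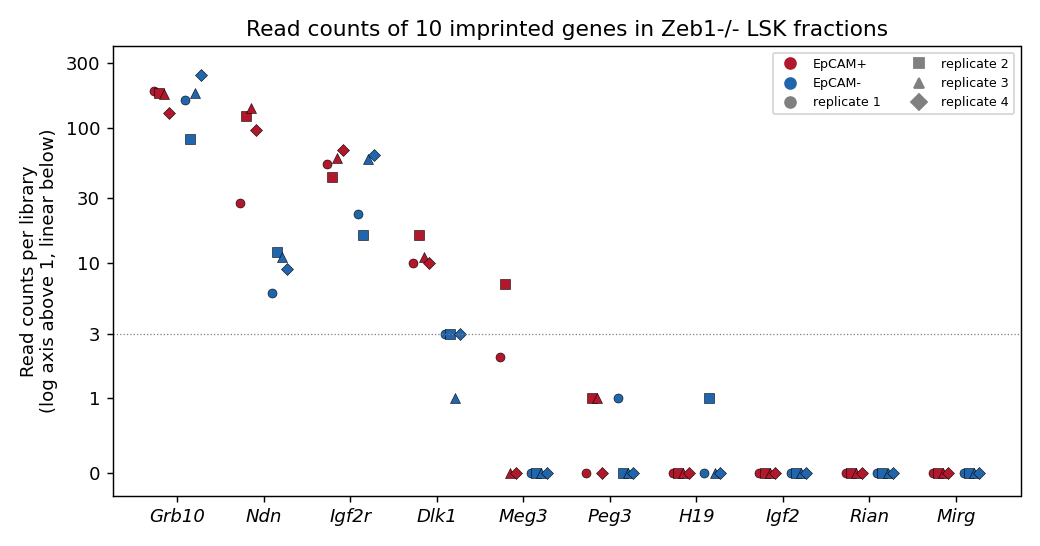
Read counts of the 10 imprinted genes (x axis) in each library, on an axis that is logarithmic above 1 and linear below, with EpCAM+ libraries in red, EpCAM- libraries in blue and the marker shape giving the replicate number. The dotted line marks the floor of 3 reads: *Grb10*, *Ndn* and *Igf2r* lie above it in all 8 libraries, *Dlk1* lies above it in EpCAM+ libraries alone, and 5 genes never exceed 1 read.

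The ligand of the growth axis and its neighbour were not detected. *Igf2*, the fetal insulin-like growth factor, had 0 reads in each of the 8 libraries. *H19*, the noncoding transcript that shares enhancers with *Igf2*, had 0 reads in 7 libraries and 1 read in EpCAM- replicate 2. *Ins2*, the insulin gene beside *Igf2*, also had 0 reads in all libraries, and so did the rows for the microRNAs *Mir675*, in *H19*, and *Mir483*, in *Igf2*. A count of 0 allows up to the floor of 3 reads in a library, and this limit covers counting error only, since the reads carry no molecular identifiers.

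The *Dlk1*-*Meg3* locus held few reads, most of them in the processed pseudogene *Gm3379* and in *Dlk1*, itself below the low-count filter. *Meg3*, the maternal noncoding RNA that opens the transcript series, had 2, 7, 0 and 0 reads in EpCAM+ replicates 1 to 4 and 0 reads in all EpCAM- libraries. The reads fell in 2 of the 4 EpCAM+ libraries, the fractions overlapped at 0, and the difference did not pass an exact two-sided permutation test (p = 0.429). *Rian*, host of a snoRNA cluster, and *Mirg*, host of a microRNA cluster, had 0 reads in all 8 libraries. In the whole interval between *Dlk1* and *Dio3* the table has 116 rows, of which 3 held any read. These were *Meg3*, the long noncoding *Gm34081* with 4 reads over all libraries and the processed pseudogene *Gm3379* with 121. None of the 67 microRNA rows and 23 snoRNA rows had a read. Library preparation primed poly(A) tails, which mature small RNAs lack, so those rows do not measure them. *Rtl1* and *Dio3*, the other paternally expressed protein-coding genes of the cluster, had 0 reads. *Begain*, upstream of *Dlk1*, was at 0.777 ± 0.222 CPM in EpCAM+ and 0.576 ± 0.353 CPM in EpCAM- libraries and did not pass the test (log2 fold change 0.42, edgeR adjusted p = 0.484).

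*Dlk1* encodes a membrane protein with EGF-like repeats related to the Notch ligands and is known as a fetal and progenitor cell marker. It had 10, 16, 11 and 10 reads in EpCAM+ replicates 1 to 4 and 3, 3, 1 and 3 reads in EpCAM- replicates 1 to 4. The lowest EpCAM+ library was thus above the highest EpCAM- library, although the reads in EpCAM- cells are at the floor. On the CPM scale the libraries stood at 0.654, 0.907, 0.615 and 0.649 in EpCAM+ and at 0.187, 0.222, 0.0683 and 0.221 in EpCAM- cells. Summed over libraries there were 47 reads against 10, a ratio of 4.10 after scaling (95% interval 2.04 to 9.10, counting error only). The fractions differed in an exact two-sided permutation test (p = 0.0286). This is the smallest p that 4 libraries against 4 allow and is not adjusted for the 5 members tested in this way. For each of these members the test treats the 8 libraries as exchangeable. It does not use the replicate numbers, which were found to pair the libraries. The 4 pairs of libraries with the same replicate number gave ratios of 3.49, 4.09, 9.01 and 2.94. *Dlk1* did not reach the low-count filter, and when the filter was widened to genes with 1 read in any library its log2 fold change was 1.96 (SE 0.53, edgeR adjusted p = 0.0146). Leaving out single libraries gave ratios between 3.40 and 4.49.

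*Ndn*, the paternally expressed gene of the Prader-Willi region, encodes necdin, a MAGE family protein that restrains cell division. Its reads were 28, 123, 139 and 97 in EpCAM+ replicates 1 to 4, against 6, 12, 11 and 9 in EpCAM- replicates 1 to 4. All EpCAM+ libraries were above all EpCAM- libraries, and EpCAM+ replicate 1 stood well below the other EpCAM+ libraries. In CPM, the EpCAM+ libraries were at 1.83, 6.97, 7.77 and 6.29 and the EpCAM- libraries at 0.375, 0.888, 0.751 and 0.662, with means of 5.72 ± 2.66 and 0.669 ± 0.217 (SD, n = 4). The log2 fold change was 3.10 (SE 0.46, 95% interval 2.07 to 4.12, edgeR adjusted p = 0.000773), and the exact two-sided permutation test gave its smallest possible p of 0.0286. The increase was seen in each pair of libraries with the same replicate number, at 4.89-, 7.85-, 10.4- and 9.50-fold. *Ndn* passed with any 1 of the 8 libraries left out, with log2 fold changes from 2.88 to 3.38 and edgeR adjusted p-values from 0.000229 to 0.00404. The largest log2 fold change and the smallest edgeR adjusted p came without EpCAM+ replicate 1, and the largest edgeR adjusted p came without EpCAM- replicate 3.

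**Figure D2:**
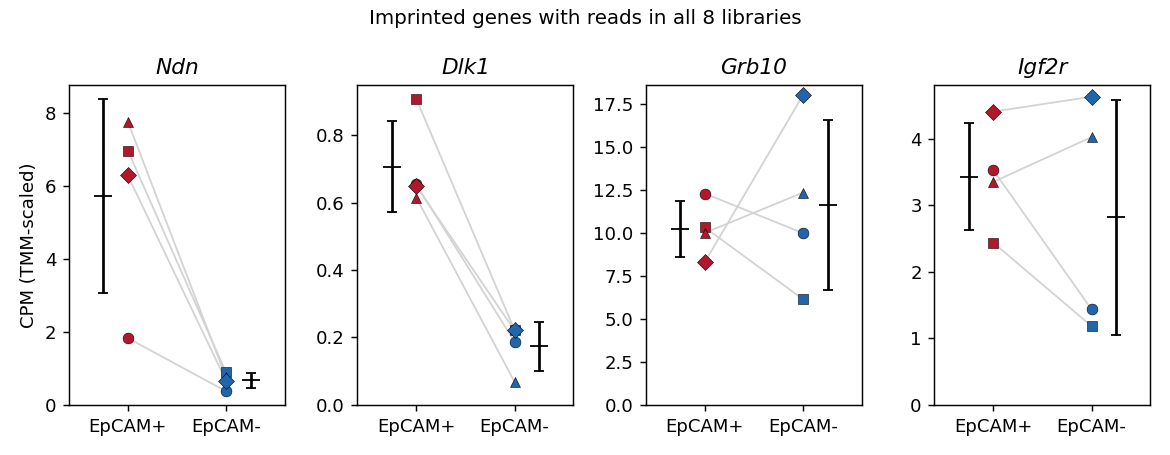
CPM of *Ndn*, *Dlk1*, *Grb10* and *Igf2r* in each library, with black bars for the mean and SD of the 4 libraries of a fraction, marker shapes for the replicate number and grey lines joining libraries with the same number. All lines fall from EpCAM+ to EpCAM- for *Ndn* and *Dlk1*, while for *Grb10* and *Igf2r* they cross, with *Grb10* ratios from 0.461 to 1.68 and *Igf2r* ratios from 0.833 to 2.46.

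*Ndn* has a single transcript with 1 exon in GENCODE M21, whose span is the one in the table, so reads from genomic DNA cannot be told from its RNA by splicing. *Magel2*, its intronless neighbour, had 0 reads in all 8 libraries. *Mkrn3* and *Peg12*, genes of the same region whose exons also fill their whole span, had reads. Summed over EpCAM+ and EpCAM- libraries, these were 95 and 47 for *Mkrn3* and 40 and 27 for *Peg12*. The part of genomic DNA in any of these reads was not tested. *Dlk1* has up to 6 exons and overlaps no other row of the table. 1 row on the opposite strand overlaps *Ndn* and had no reads.

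Markers of other cells differed between the fractions. The summed level of 8 B and plasma cell markers was 295 to 3720 CPM in EpCAM+ and 48.8 to 84.6 CPM in EpCAM- libraries, with 4 of the 6 tested higher, and the highest sum, 3720, was in EpCAM+ replicate 1, the EpCAM+ library with the lowest *Ndn*. Dendritic cell markers (7 genes) summed to 310 to 653 CPM against 156 to 267 CPM, with 5 of the 6 tested higher. Most of that sum was *Flt3*, also a gene of LSK progenitors (366 and 199 CPM on average), whereas the dendritic cell gene *Xcr1* averaged 81.3 and 0.403 CPM and *Zbtb46* did not pass (log2 fold change -0.29, edgeR adjusted p = 0.727). T cell markers (7 genes) summed to 52.6 to 66.9 CPM against 17.1 to 29.1 CPM, with both tested genes, *Lck* and *Cd4*, higher. The *Cd4* call was kept in 2 of the 8 fits with a library left out. Of the 5 not tested, *Cd3e*, a defining gene of T cells, had 1 read in all. The others had few reads, with more in EpCAM+ libraries. Summed reads in EpCAM+ and EpCAM- libraries were 26 and 8 for *Cd3d*, 22 and 8 for *Trac*, 16 and 3 for *Cd3g*, and 11 and 2 for *Cd8a*.

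Most erythroid, mast cell and basophil, and early myeloid markers were lower in EpCAM+ libraries. Erythroid markers (6 genes) summed to 45.4 to 219 CPM in EpCAM+ and 1900 to 6620 CPM in EpCAM- libraries, with 5 of the 6 lower. Mast cell and basophil markers (4 genes) summed to 66.1 to 85.5 CPM against 221 to 471 CPM, with 3 of the 4 lower. Of 7 neutrophil markers, the granule genes *Mpo*, *Elane* and *Prtn3* of early myeloid cells fell, *Mpo* from 10440 to 781 CPM on average. The other 4, *S100a8*, *S100a9*, *Ngp* and *Camp*, did not pass, with log2 fold changes from -0.80 for *Ngp* to 0.17 for *S100a9*. The 7 summed to 1030 to 1600 CPM in EpCAM+ and 10700 to 17100 CPM in EpCAM- libraries, most of it *Mpo*. Further lineages did not share this direction throughout. Of 5 macrophage markers, 2 fell and 3 did not pass. Of 7 endothelial markers 4 were tested and 2 rose, *Emcn* and *Tek*. *Pecam1* (log2 fold change -0.14, edgeR adjusted p = 0.280) and *Egfl7* (0.36, edgeR adjusted p = 0.0701) did not pass. Summed reads of the untested *Cdh5*, *Kdr* and *Flt1* were 2, 33 and 19 in EpCAM+ and 2, 19 and 17 in EpCAM- libraries. Of 5 megakaryocyte markers 4 were tested and 1 rose, with 0 lower in either list. Of 3 NK cell markers the 1 tested did not pass, and *Ncr1*, not tested, had 53 reads in EpCAM+ and 0 in EpCAM- libraries.

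The 9 stromal markers summed to 20.3 to 26.3 CPM in EpCAM+ and 23 to 32.3 CPM in EpCAM- libraries, almost all of it *Pdgfrb* (23.4 and 27.4 CPM on average). The collagen genes *Col1a1* and *Col3a1* had 0 reads in all 8 libraries. *Col1a2*, the other collagen gene listed, had 1, 10, 12 and 4 reads in EpCAM+ and 5, 1, 6 and 8 reads in EpCAM- replicates 1 to 4. *Cxcl12*, *Lepr*, *Dcn* and *Lum* had 31, 7, 4 and 2 reads in EpCAM- replicate 4, against 2 reads or fewer of *Cxcl12* and 0 of the other 3 genes in each other library. With that library left out, *Ndn* had a log2 fold change of 3.09 (edgeR adjusted p = 0.00300). The part of any of these cells in the differences of *Ndn* and *Dlk1* was not tested.

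**Figure D3:**
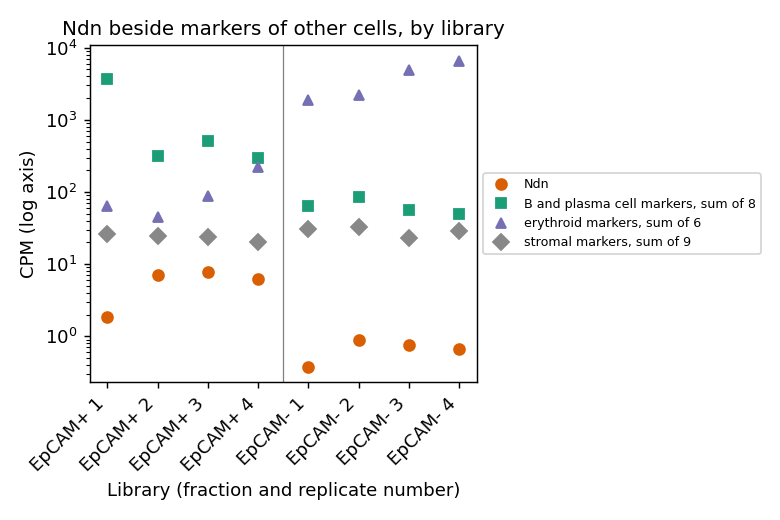
CPM of *Ndn* and summed CPM of B and plasma cell, erythroid and stromal markers (log axis) in each library, with EpCAM+ libraries left of the vertical line. EpCAM+ replicate 1 combines the highest B and plasma cell sum, 3720 CPM, with the lowest *Ndn* of the EpCAM+ libraries, 1.83 CPM, and stromal sums lie between 20.3 and 32.3 CPM throughout.

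Other genes of the Prader-Willi region differed in level. *Snrpn*, which encodes a splicing factor subunit and is also read from the paternal copy, had 6, 9, 17 and 11 reads in EpCAM+ and 3, 0, 2 and 0 reads in EpCAM- libraries, so the fractions did not overlap, but it was below the low-count filter. *Mkrn3*, a ubiquitin ligase gene, was at 1.42 ± 0.231 CPM in EpCAM+ and 0.819 ± 0.207 CPM in EpCAM- libraries (log2 fold change 0.80, SE 0.29, edgeR adjusted p = 0.0471). The *Mkrn3* call was kept in 1 of the 8 fits with a library left out and was lost with the replicate number as a block (edgeR adjusted p = 0.0503). *Peg12* had 3, 16, 14 and 7 reads against 12, 7, 2 and 6, with overlapping fractions, and was not tested. *Ube3a*, a ubiquitin ligase gene imprinted in neurons, did not pass the test (log2 fold change -0.15, edgeR adjusted p = 0.125). *Snurf* had 0 reads in all 8 libraries. *Peg3*, the paternally expressed zinc finger gene of another domain of the chromosome, had 0, 1, 1 and 0 reads in EpCAM+ and 1, 0, 0 and 0 reads in EpCAM- libraries, and its neighbours *Usp29*, *Zim1* and *Zfp264* had 0 reads in all libraries.

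The receptor that removes IGF2 from the cell surface, *Igf2r*, was expressed although the ligand was not detected. Its reads were 54, 43, 60 and 68 in EpCAM+ and 23, 16, 59 and 63 in EpCAM- replicates 1 to 4. EpCAM- replicates 1 and 2 lay below all EpCAM+ libraries, and replicates 3 and 4 lay within or above their range in CPM. Mean levels were 3.43 ± 0.808 and 2.82 ± 1.76 CPM (SD, n = 4), with a log2 fold change of 0.28 (SE 0.42, 95% interval -0.65 to 1.22, edgeR adjusted p = 0.610). The difference did not pass the test, and the interval leaves room for a change in either direction. *Airn*, the noncoding RNA on the opposite strand within *Igf2r*, had 0, 7, 5 and 7 reads in EpCAM+ and 6, 3, 13 and 5 reads in EpCAM- libraries. Since the library kit does not mark the strand, reads of *Igf2r* and *Airn* cannot be told apart where they overlap, and the *Igf2r* values are uncertain to that extent. The transporter gene *Slc22a3* of the same cluster was at 111 ± 4.89 and 98.8 ± 12.3 CPM (log2 fold change 0.17, edgeR adjusted p = 0.153). *Slc22a3* therefore did not pass the test either.

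*Grb10*, an adaptor protein that dampens signalling of the insulin and IGF1 receptors, had the most reads of the 10 genes. It had 188, 182, 179 and 128 reads in EpCAM+ and 160, 83, 181 and 245 reads in EpCAM- replicates 1 to 4. EpCAM- libraries held both the lowest and the highest value, so the fractions overlapped fully. Means were 10.2 ± 1.64 and 11.6 ± 4.97 CPM (SD, n = 4), with a log2 fold change of -0.18 (SE 0.28, 95% interval -0.79 to 0.43, edgeR adjusted p = 0.613). The sign of this estimate rests on EpCAM- replicate 4, without which the log2 fold change was 0.10, and which is the library with the *Cxcl12* and *Lepr* reads given above. Their part in the *Grb10* value was not tested. *Ddc*, the aromatic amino acid decarboxylase gene imprinted together with *Grb10*, had 11, 16, 11 and 15 reads in EpCAM+ and 3, 0, 4 and 3 reads in EpCAM- libraries. The *Ddc* fractions did not overlap, though the gene was below the low-count filter and was not tested.

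Levels of the members were set beside each other as CPM per kilobase of gene length. In EpCAM+ libraries, *Ndn* (mean 1.55) and *Grb10* (1.13) headed the order, and their ranges overlapped. *Igf2r* (0.369) and *Dlk1* (0.125) followed, each apart from the gene above it in all 4 libraries. In EpCAM- libraries the order was *Grb10* (1.28), *Igf2r* (0.303), *Ndn* (0.181) and *Dlk1* (0.0308). *Igf2r* and *Ndn* overlapped there and the other neighbours did not. Among the 13560 genes tested, the mean level of *Ndn* per kilobase stood at percentile 24.1 in EpCAM+ and 4.82 in EpCAM- cells, that of *Grb10* at 19 and 24.3, that of *Igf2r* at 6.1 and 8.25, and that of *Dlk1* at 1.14 and 0.413. The 4 genes with reads in all libraries are thus in the lower part of the distribution in both fractions.

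Likeness of pattern was measured for *Igf2r* and *Grb10* as the root mean square difference of centred log2 CPM over the 8 libraries. The genes nearest to *Igf2r* were *Gm6286* (0.238), *Gm33370* (0.254) and *Ryk* (0.285), a Wnt receptor gene. Those nearest to *Grb10* were *Gm6685* (0.179), *Isg20* (0.179), an interferon-induced exonuclease gene, and *Mllt3* (0.198), which encodes a transcription elongation factor subunit of HSCs. The libraries share their scaling, and no test was made of these values. *H19* and *Meg3* were too low for such a comparison.

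The wider set of imprinted genes was read in the same fit. Of 61 further imprinted genes, 31 were tested, of which 11 rose, 3 fell and 17 did not pass, and 13 of the 61 had 0 reads in all libraries. The median log2 fold change of the 31 was 0.25, against 0.02 over all genes tested, of which 21.8% rose and 20.8% fell. *Sgce*, a paternally expressed sarcoglycan gene, rose from 9.68 ± 4.98 CPM in EpCAM- to 33.3 ± 3.29 CPM in EpCAM+ libraries (log2 fold change 1.77, SE 0.28, edgeR adjusted p = 0.000932). *Peg13*, a paternally expressed noncoding RNA inside *Trappc9*, rose by 0.91 on the log2 scale (SE 0.16, edgeR adjusted p = 0.00187). *Gatm*, an enzyme gene of creatine synthesis, fell by 1.06 on the log2 scale (SE 0.12, edgeR adjusted p = 0.000228), and *Pon2*, a paraoxonase gene, fell by 0.40 (SE 0.08, edgeR adjusted p = 0.00223). These 4 calls held with each library left out in turn.

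Cyclin-dependent kinase inhibitors include 1 imprinted gene, *Cdkn1c*, which encodes p57, is read from the maternal copy and is known for its part in HSC quiescence. *Cdkn1c* had 111, 120, 84 and 62 reads in EpCAM+ and 40, 27, 34 and 17 reads in EpCAM- replicates 1 to 4. All EpCAM+ libraries were above all EpCAM- libraries, at 5.69 ± 1.58 against 2.02 ± 0.551 CPM (SD, n = 4), with a log2 fold change of 1.49 (SE 0.28, edgeR adjusted p = 0.00231). *Phlda2* and *Slc22a18*, maternally expressed genes of the same domain as *Cdkn1c*, which were singled out after their values were seen, rose by 1.13 (SE 0.22, edgeR adjusted p = 0.00256) and 0.92 (SE 0.20, edgeR adjusted p = 0.00471). *Kcnq1ot1*, the noncoding RNA read from the paternal copy of that domain and chosen in the same way, did not pass the test (log2 fold change 0.17, edgeR adjusted p = 0.361).

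**Figure D4:**
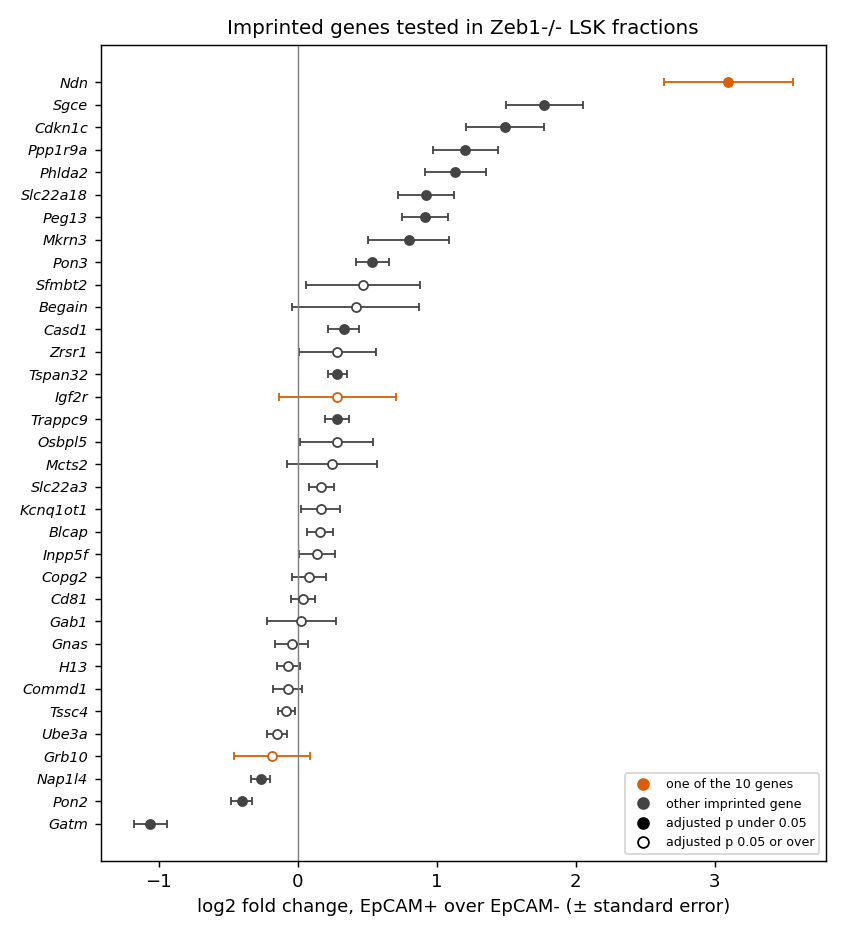
Log2 fold change between EpCAM+ and EpCAM- libraries (x axis, bars for the standard error) of the 34 imprinted genes tested, with the 3 members in orange, the 31 others in grey and filled points for an edgeR adjusted p under 0.05. *Ndn* stands at the right end at 3.10, *Gatm* at the left end at -1.06, and *Grb10* and *Igf2r* lie among the open points around 0.

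Genes of the insulin-like growth factor axis were few in these cells. Of 18 listed genes other than the members, 7 were tested. Of these, 2 rose, 2 fell and 3 did not pass, with a median log2 fold change of 0.18. Over all genes tested, 21.8% rose and 20.8% fell. *Grb7*, an adaptor of the same protein family as GRB10 and not imprinted, had 334, 247, 231 and 250 reads in EpCAM+ and 35, 22, 13 and 21 reads in EpCAM- libraries. Every EpCAM+ library exceeded every EpCAM- library in *Grb7*, with a log2 fold change of 3.37 (SE 0.27, edgeR adjusted p = 0.000103). The binding protein gene *Igfbp4* fell by 0.47 on the log2 scale (SE 0.10, edgeR adjusted p = 0.00344). *Insr*, the insulin receptor gene, had a log2 fold change of 0.27 (edgeR adjusted p = 0.0450) and *Igfbp7* one of -0.75 (edgeR adjusted p = 0.0428), and each kept its call in 2 of the 8 fits with a library left out. *Igf1r*, the IGF1 receptor gene, did not pass (log2 fold change 0.18, edgeR adjusted p = 0.245).

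Among 26 genes that set, protect or erase methylation at imprinted loci, 23 were tested. Of these, 4 rose, 2 fell and 17 did not pass, with a median log2 fold change of 0.07. Over all genes tested 42.6% passed, a larger share than in this list. With the replicate number as a block, 8 rose and 3 fell. Upper-quartile scaling, which moved the median of all genes to 0.107, gave 9 higher and 1 lower, and library totals gave 8 higher and 1 lower. Without EpCAM- replicate 1, 9 rose and 2 fell, and without any other library 3 to 5 rose and 1 to 2 fell. *Zfp57*, which encodes the zinc finger protein that guards methylated imprints, had 15, 31, 20 and 29 reads in EpCAM+ and 5, 2, 6 and 4 reads in EpCAM- libraries. Its fractions did not overlap, and its log2 fold change was 2.26 (SE 0.39, edgeR adjusted p = 0.00154). *Zfp57* reached the low-count filter through its EpCAM+ libraries alone, and a filter passed in this way favours a higher value there. *Trim28*, which encodes the corepressor that ZFP57 recruits, fell by 0.32 on the log2 scale (SE 0.08, edgeR adjusted p = 0.0103). *Tet1*, a 5-methylcytosine oxidase gene, rose by 0.76 (SE 0.14, edgeR adjusted p = 0.00205), and *Dnmt3b*, a de novo methyltransferase gene, by 0.36 (SE 0.10, edgeR adjusted p = 0.0135). *Dnmt1*, the maintenance methyltransferase gene, and *Ctcf*, the insulator protein gene, did not pass, with log2 fold changes of -0.03 (edgeR adjusted p = 0.716) and -0.07 (edgeR adjusted p = 0.373).

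Genes of stem cell identity and of division are given beside the members, because *Ndn*, *Dlk1* and *Cdkn1c* are known in that context. For the counts below, the background over all genes tested was 21.8% higher and 20.8% lower. Of 15 stem cell genes, all were tested and 12 rose, with a median log2 fold change of 1.34. *Meis1*, a homeobox gene of HSCs, rose by 1.20 (SE 0.13, edgeR adjusted p = 0.000211), and *Hlf*, a transcription factor gene of HSCs, by 1.91 (SE 0.22, edgeR adjusted p = 0.000250). Of 12 genes of DNA replication and mitosis, 9 fell and 3 did not pass, with a median log2 fold change of -0.38. The falls ranged from -0.57 for *Ccna2* to -0.30 for *Cdk1*. Those that did not pass were *Pcna* (-0.16, edgeR adjusted p = 0.130), *Mki67* (-0.12, edgeR adjusted p = 0.342) and *Top2a* (-0.10, edgeR adjusted p = 0.297). With the replicate block, *Pcna* passed as lower (edgeR adjusted p = 0.0405). Cell division itself was not measured in these libraries. Upper-quartile scaling gave 6 as lower in place of 9. Of 10 genes that control entry to the cell cycle from G1, 8 were tested, of which *Cdkn1c* and *Cdkn2d* rose and *Cdkn1a*, the p21 gene, fell by 1.00 (SE 0.31, edgeR adjusted p = 0.0263), and with the replicate block 4 rose and 1 fell. The *Cdkn1a* call was lost without EpCAM+ replicate 1 and without EpCAM- replicate 2. The fetal program genes *Hmga2* and *Arid3a*, the tested 2 of 6, had log2 fold changes of 1.26 (edgeR adjusted p = 0.00197) and -0.50 (edgeR adjusted p = 0.0470), and the *Arid3a* call was kept in 2 of the 8 fits with a library left out. Whether the *Ndn* difference moves with the share of stem cells in a fraction was not tested.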

How the data were processed

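RNA-Seq was made from 4 EpCAM+ and 4 EpCAM- *Zeb1*-/- LSK samples. Per the labels, RNA was amplified with SMART-Seq v4, and the submitters' processing notes name STAR 2.6.1d, featureCounts 1.5.0-p3, DESeq2 1.20.0 and GRCm38.p6. The deposited counts are whole reads per gene without normalization, and all values here start from them. The deposited FPKM values, scaled by the authors to gene length and depth, were not used, nor were the columns of comparisons made by the authors, which give a fold change and p-value between the fractions and between 4 pairs of single libraries. The annotation release and the strandedness of counting are not given in the sources used here.

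Genes were kept by edgeR's filterByExpr, scaled by TMM and tested with edgeR 4.0.16 in R 4.3.3 (quasi-likelihood, two-sided, no block, Benjamini-Hochberg adjustment over all genes tested, threshold 0.05). CPM used TMM-scaled library sizes, and log2 CPM a prior count of 2. Standard errors came from the F statistic. Single values were compared by exact permutation of the 8 libraries, without the pairing by replicate number. Ratios of summed reads carry exact binomial intervals. The edgeR fit was tested on simulated data in which far fewer genes changed than were called here, and the other procedures were not. Figures were drawn with matplotlib 3.10.9.

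The members and lists were chosen with earlier results of these data known. Named were the 10 members, imprinted genes of their loci, for each list up to 4 genes with the lowest adjusted p among its calls, the genes nearest in pattern, *Epcam* and *Zeb1*. Genes at or near 0, marker genes and genes that did not pass were named to complete a locus or list, and *Phlda2*, *Slc22a18*, *Kcnq1ot1*, *Insr*, *Igfbp7* and others of these were chosen after their values were seen.

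The replicate numbers were found to pair the samples. Deviations from the group means were correlated between libraries of equal number (across genes, which are not independent, 0.205 to 0.356 in 4 pairs), and the 12 pairs with different numbers gave -0.216 to 0.0396. What the numbers share is not given in the sources used here. The files held no duplicate libraries. Alternatives were DESeq2 1.42.0, other scalings and filters, the replicate block and leaving out each library.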

Additional observations from a re-analysis of the deposited data

Results flagged for a closer look

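Among 149 groups of 4 libraries, 14 held 1 library set apart from the other 3 by a gap that takes up most of the range of the group, judged by Dixon's 95% critical value, and chance alone gives about 1 in 20. *Dlk1* was highest in EpCAM+ replicate 2, at 0.907 CPM against 0.615 to 0.654 in the others. Of the other imprinted genes, *Sgce* was highest in EpCAM+ replicate 3 (38.2 CPM against 31.2 to 32.1), *Phlda2* was lowest in EpCAM+ replicate 4 (14.9 CPM against 18 to 18.7) and *Ube3a* was lowest in EpCAM- replicate 2 (89.4 CPM against 99 to 101).

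EpCAM+ replicate 1, the EpCAM+ library with the lowest *Ndn*, was highest in 4 genes of B and plasma cells or lymphoid progenitors. *Jchain* stood at 3520 CPM against 199 to 429, *Mzb1* at 49.3 CPM against 6.18 to 8.16, *Cd79a* at 36.3 CPM against 1.98 to 4.93, and *Ly6d* at 49.6 CPM against 5.25 to 7.54. Without this library the log2 fold change of *Ndn* was 3.38 in place of 3.10.

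The remaining genes were *Hlf* in EpCAM+ replicate 3 (165 CPM against 109 to 112), *Ccna2* in EpCAM- replicate 4 (364 CPM against 282 to 286), *Aurkb* in the same library (316 CPM against 264 to 272), *Cd4* in EpCAM- replicate 2 (1.63 CPM against 0.749 to 0.809), *Klf1* in EpCAM+ replicate 4 (26.5 CPM against 12.2 to 13.1) and *Adgre1* in the same library (0.908 CPM against 0.0567 to 0.112).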

How the results depend on the processing

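The increase of *Ndn* kept its direction and passed in each of the 14 alternatives that tested it. It was removed by a filter of 10 reads in every library, which left 0 members called. The count of members called was 2 in place of 1 with DESeq2 and with a filter of 1 read in any library, and 1 to 2 with a library left out. The added member was *Dlk1*, which such fits tested, with a log2 fold change of 2.01 in DESeq2 (adjusted p = 0.0159) and of 1.71 to 2.10 without EpCAM- replicate 2, 3 or 4. In the fits with a library left out, *Dlk1* passed the low-count filter through its EpCAM+ libraries alone. Each EpCAM- library had 3 reads or fewer, so these calls are no separate support for the difference. With the replicate block, *Ndn* had a log2 fold change of 3.03 (SE 0.26, edgeR adjusted p = 9.4e-05). The block left 1 member, 13 of the other imprinted genes in place of 14 and 5 genes of the insulin-like growth factor axis in place of 4 called, adding *Irs2* and losing *Mkrn3*. Across all genes 5779 passed, against 6818 with the block and 4662 to 6039 with a library left out. Calls in the growth factor axis fell to 2 with the filter of 1 read in any library and ranged from 2 to 4 with a library left out (2 without EpCAM+ replicate 1 or 3 or EpCAM- replicate 2 or 3). Scaling by upper quartile or by library totals moved the median log2 fold change of all genes to 0.107 and 0.105. It gave 3642 higher and 2083 lower, and 3476 higher and 2066 lower, in place of 2961 and 2818. In the growth factor axis either gave 2 higher and 1 lower. Of 74 named genes tested, 68 kept their direction throughout, and of 1094 alternative values 60 lost a call, 1 gained one and 7 turned sign. Those that turned did so when 1 EpCAM- library was left out, and their log2 fold changes, none of them called, ranged over the left-out libraries from -0.14 to 0.53 for *Ryk*, -0.093 to 0.65 for *Gm6286*, -0.044 to 0.38 for *Mllt3*, -0.40 to 0.10 for *Grb10*, -0.53 to 0.18 for *Gm6685* and -0.34 to 0.083 for *Isg20*. The cause was not tested. At this depth *H19*, *Igf2*, *Rian*, *Mirg* and *Peg3* could not be compared.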

Other observations

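The genes of the *Sgce* cluster on chromosome 6, singled out after their values were seen, differed in level and in change. *Ppp1r9a*, a neurabin gene, rose from 6.53 ± 2.34 CPM in EpCAM- to 15.0 ± 2.49 CPM in EpCAM+ libraries (SD, n = 4), a log2 fold change of 1.21 (SE 0.24, edgeR adjusted p = 0.00281). *Pon3*, a paraoxonase gene, rose by 0.54 on the log2 scale (SE 0.12, edgeR adjusted p = 0.00492), while its neighbour *Pon2* fell by 0.40. *Casd1*, a sialic acid acetyltransferase gene, had a log2 fold change of 0.33 (SE 0.11, edgeR adjusted p = 0.0363), a call kept in 3 of the 8 fits with a library left out. *Peg10*, which shares its promoter region with *Sgce*, had 2 reads, both in EpCAM+ replicate 3, and was not tested. *Asb4* had 11, 18, 10 and 4 reads in EpCAM+ and 5, 4, 0 and 0 reads in EpCAM- libraries, with overlapping counts.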
